A study of Mus musculus with 20 samples.

Results

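Endothelial cells sorted from mammary tumours were compared between 2 immunodeficient hosts, 3 libraries from TCRKO mice and 3 from CD8KO mice, chosen by the background named in each library's title from 20 libraries over 6 backgrounds. Every mouse was on the C57BL/6J strain and carried an orthotopic graft of E0771, a mouse mammary carcinoma line of the same strain, injected into the fat pad and taken out once it measured 500 mm3. TCRKO names a host without the T cell receptor, and its label adds deficiency in CD4+ T cells. The label for CD8KO, a host without the CD8 co-receptor, adds competence in CD4+ T cells. CD4+ T cells are thus what the labels set apart, while neither host is labelled as having CD8+ T cells. The labels give no receptor chain, allele, age or sex, and they leave unsaid which libraries come from different animals. The p-values here therefore measure the spread between libraries, which may be technical. Tumours were dissociated, CD31+ cells (CD31, encoded by Pecam1, is an adhesion molecule of endothelium) were enriched on beads and sorted, and total RNA was amplified by MATQ before sequencing.

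T cells reach a tumour by rolling on selectins and arresting on immunoglobulin-type adhesion molecules of endothelium, mostly in venules. Cytokines that T cells release, interferon gamma and tumour necrosis factor among them, act back on the same endothelium by inducing antigen presentation, chemokines and adhesion molecules. Endothelial cells in turn lay down a basement membrane of laminin, collagen IV and nidogen, and in larger vessels elastic fibres in which fibrillin microfibrils carry elastin, fibulins and the latent forms of transforming growth factor beta. The comparison asks how tumour endothelium of hosts without the T cell receptor differs from that of hosts labelled as keeping CD4+ T cells.

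The 6 libraries held 4374594 to 10741250 expected counts, the read numbers that RSEM assigns to each gene. Protein-coding genes took 17.7% to 23.5% of these in 5 libraries and 81.0% in CD8KO_9752, where ribosomal RNA took 12.1% against 69.8% to 76.4% elsewhere. CD8KO_9752 therefore stands apart in its makeup, and the calls and the medians of several lists are given below also without it. Levels are on the counts-per-million scale (CPM) after TMM scaling, and 3 counts in a library equal 0.145 to 0.815 CPM. Of 10319 genes that passed the filter on low counts, 4 (0.0388%) passed the threshold of 0.05 on the Benjamini-Hochberg adjusted p of edgeR's quasi-likelihood test. All 4 were lower in TCRKO libraries and 0 (0.0%) were higher (DESeq2 called 63 higher), with 805 genes (7.8%) at an unadjusted p under 0.05, 354 (3.43%) higher and 451 (4.37%) lower. In 806 genes (7.81%) all 3 TCRKO libraries lay below all 3 CD8KO-labelled libraries, and in 636 (6.16%) they lay above. Each count of list members below is to be read beside these shares, and each list median beside that over all tested genes, 0.00266. A count of a few members is given as a value, not as a result about its list. A fold change is TCRKO over CD8KO on the log2 scale throughout, with its standard error from the fit.

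The genes of the labels were read first. Cd8a, which encodes the CD8 alpha chain, had 0, 0 and 9 counts in TCRKO libraries, against 338, 914 and 601 counts in libraries labelled CD8KO. As levels these were 0, 0 and 2.44 CPM in TCRKO libraries, against 55.0, 44.2 and 79.6 CPM in libraries labelled CD8KO, a log2 fold change of -6.61 ± 0.98 (edgeR adjusted p = 0.0272). Cd8a RNA was thus abundant in every library whose label names its loss, and near 0 in every TCRKO library. Cd8b1, which encodes the partner chain, had 0 counts in all 6 libraries. A count for the whole gene does not show which exons were read, and the labels do not give the deleted part, so the count alone does not check the label. Leaving out any 1 of the CD8KO-labelled libraries took the adjusted p of Cd8a above 0.05, to between 0.0626 and 0.190, as did DESeq2 (0.0875). Since the Cd8a count does not check the label, these libraries are called by their label. Every direction below is one of TCRKO-labelled against CD8KO-labelled libraries.

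The receptor itself was too low to check. Trac, the constant region of the T cell receptor alpha chain, had 5, 9 and 3 counts in TCRKO libraries, against 1, 5 and 0 counts in CD8KO-labelled libraries. Trbc1, a beta chain constant region, had 0, 6 and 0 counts in TCRKO libraries and 0 counts in each CD8KO-labelled library. Cd3e, a signalling subunit of the receptor, had 1, 0 and 0 counts in TCRKO libraries, against 0, 9 and 0 counts in CD8KO-labelled libraries. As levels Trac stood at 0.702, 1.22 and 0.815 CPM in TCRKO libraries, against 0.163, 0.242 and 0 CPM in CD8KO-labelled libraries, so all TCRKO libraries lay above all CD8KO-labelled libraries, which does not follow the label. Trac did not pass the filter on low counts and was not tested, the other genes overlapped between groups, and a loss of the receptor was not detectable at this depth. Cd4 stood at 5.20, 4.87 and 1.36 CPM in TCRKO libraries, against 4.88, 3.77 and 0 CPM in CD8KO-labelled libraries, an estimate of 0.41 ± 1.17 whose groups overlap. H2-Ab1, the beta chain of the class II molecule that CD4+ T cells read, stood at 75.7, 67.5 and 67.1 CPM in TCRKO libraries, against 77.3, 87.8 and 52.7 CPM in CD8KO-labelled libraries. Its estimate was -0.05 ± 0.32.

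Endothelial identity was plain in both groups. On the transcripts-per-million scale (TPM), which allows for gene length, the 18 pan-endothelial markers stood at or above the 87.1st percentile of protein-coding genes in every library, and Pecam1 at or above the 99.5th. The summed level of the list was nevertheless 5957, 6200.4 and 4487 CPM in TCRKO libraries, against 9769.99, 8437 and 8371 CPM in CD8KO-labelled libraries, with no overlap. Of the 18 markers, 8 were lower at an unadjusted p under 0.05, 0 were higher and 0 passed the adjusted threshold. Their median log2 fold change was -0.54, and 17 of the 18 estimates lay below 0. Medians of other endothelial lists below are to be read beside this one. Pecam1 stood at 942, 861 and 638 CPM in TCRKO libraries, against 1432, 1201 and 1155 CPM in CD8KO-labelled libraries. In bulk RNA fewer endothelial cells in the sort and less of these RNAs per cell cannot be told apart. Macrophage markers summed to 1198, 493 and 929.7 CPM in TCRKO libraries, against 499, 611 and 432 CPM in CD8KO-labelled libraries, so TCRKO_9765 and TCRKO_9767 lay above all CD8KO-labelled libraries and TCRKO_9766 within their range. Dendritic cell markers summed to 110.4, 44.6 and 35.6 CPM in TCRKO libraries, against 56.3, 48.3 and 55.0 CPM in CD8KO-labelled libraries. Lists for natural killer cells, B cells, neutrophils, erythroid cells, platelets and adipocytes summed to at most 43.8 CPM in any library. When libraries were scaled to the pan-endothelial genes, an alternative added after seeing the data, the median of all genes moved to 0.70, and 69 genes were called higher and 10 lower, in place of 0 higher and 4 lower.

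**Figure D1:**
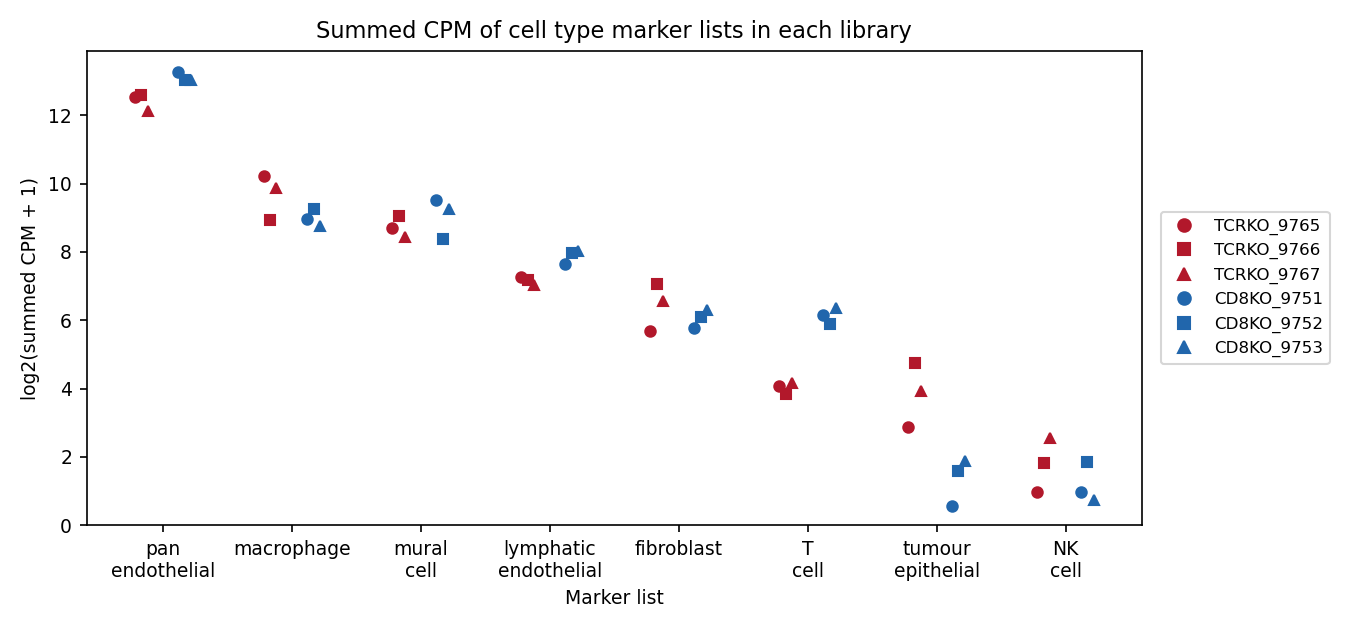
Summed CPM of marker lists, as log2(summed CPM + 1), in each of the 3 TCRKO libraries (red) and 3 CD8KO libraries (blue), with 1 symbol per library. Pan-endothelial sums lie between 4487 and 6200.4 CPM in TCRKO libraries and between 8371 and 9769.99 CPM in CD8KO libraries, macrophage sums overlap, and the T cell sum follows Cd8a.

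Apart from Cd8a, the 3 genes that fell in TCRKO libraries all encode proteins of the extracellular matrix. Bgn encodes biglycan, a small proteoglycan that binds collagen and transforming growth factor beta, and lies at X:73483602-73495933 on the plus strand of GRCm38 (ENSMUSG00000031375). It stood at 52.8, 26.2 and 16.02 CPM in TCRKO libraries, against 224, 278 and 263 CPM in CD8KO-labelled libraries. The means were 31.7 ± 19.0 and 255 ± 28.03 CPM (SD, n = 3 each), a 7.995-fold lower level in TCRKO libraries with a log2 fold change of -3.00 ± 0.41 (edgeR adjusted p = 0.0209). The highest TCRKO library lay well below the lowest CD8KO-labelled library.

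Fbn1 encodes fibrillin-1, the main subunit of microfibrils, and lies at chr2:125300594-125507993 on the minus strand (ENSMUSG00000027204). It stood at 0.843, 2.57 and 1.36 CPM in TCRKO libraries, against 33.8, 27.7 and 29.8 CPM in CD8KO-labelled libraries, which rests on 6, 19 and 5 counts in TCRKO libraries. The gene was detected in every library, but in TCRKO libraries close to the limit of what their depth can count. The level was 18.7-fold lower in TCRKO libraries, with a log2 fold change of -4.23 ± 0.59 (edgeR adjusted p = 0.0209). Fbln2 encodes fibulin-2, which links fibrillin, elastin and basement membrane proteins, and lies at chr6:91212455-91272540 on the plus strand (ENSMUSG00000064080). It stood at 87.6, 62.6 and 70.9 CPM in TCRKO libraries, against 452, 336 and 205 CPM in CD8KO-labelled libraries, with a log2 fold change of -2.17 ± 0.34 (edgeR adjusted p = 0.0336) and a 4.49-fold lower level. The TCRKO libraries lay close together and the CD8KO-labelled libraries spread more widely, without overlap.

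Every alternative tried kept the direction of these 3 genes, but not every one kept the call. Bgn passed in 14 of 17 alternatives, Fbn1 in 11 and Fbln2 in 9. All 3 missed the threshold without CD8KO_9751, at an adjusted p of 0.190 for Bgn and Fbn1 and 0.215 for Fbln2. Without CD8KO_9752 each stood at 0.167. Fbln2 also missed it when any 1 TCRKO library was left out (adjusted p 0.0706 to 0.114), and Fbn1 without TCRKO_9767 (0.0813).

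The sequences before the transcription starts of these 3 genes are printed because they are the ones whose RNA fell. Each is the 250 bases before the start in RefSeq, GRCm38.p6, read 5′ to 3′ on the strand of the gene, with capitals marking matches to the GC box GGGCGG on either strand. The gene spans given above come from GENCODE M21, whose outermost start can differ from that of RefSeq. For Fbn1 and Fbln2 the window lies inside the span, downstream of the GENCODE start, while for Bgn it lies before the span.
Bgn, X:73483351-73483600, plus strand: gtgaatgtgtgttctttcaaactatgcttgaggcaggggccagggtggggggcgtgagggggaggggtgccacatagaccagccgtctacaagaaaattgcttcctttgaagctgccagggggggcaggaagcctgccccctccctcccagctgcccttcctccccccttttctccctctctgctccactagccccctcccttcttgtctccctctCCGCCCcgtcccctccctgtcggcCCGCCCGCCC
Fbn1, chr2:125506439-125506688, minus strand: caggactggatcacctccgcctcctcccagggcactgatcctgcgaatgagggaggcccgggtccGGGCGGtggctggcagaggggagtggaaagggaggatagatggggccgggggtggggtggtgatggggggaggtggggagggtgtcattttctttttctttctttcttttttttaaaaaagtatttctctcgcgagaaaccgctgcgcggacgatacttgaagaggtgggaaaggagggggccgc
Fbln2, chr6:91212514-91212763, plus strand: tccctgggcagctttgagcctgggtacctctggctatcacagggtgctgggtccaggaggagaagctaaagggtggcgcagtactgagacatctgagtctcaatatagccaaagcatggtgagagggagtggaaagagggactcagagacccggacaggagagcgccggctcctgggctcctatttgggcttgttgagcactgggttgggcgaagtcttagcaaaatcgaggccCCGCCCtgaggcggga
The GC content of these windows was 64.4% for Bgn, 59.2% for Fbn1 and 58.8% for Fbln2. Bgn holds 3 GC boxes, which begin at -34, -10 and -6 from the start, the last pair overlapping. Fbn1 holds 1 that begins at -185, and Fbln2 holds 1 that begins at -16. Of 32851 promoter windows of this length 32.7% hold at least 1 match. None of the 3 windows holds the letters TATAAA (12.4% of all windows) or the ETS letters CAGGAAGT (2.69%), on either strand, and these matches describe letters only.

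The wider list of elastic fibre genes held 21 members, of which 11 were tested, and those not tested, Mfap4, Mfap5 and Fbn2 among them, were at or near 0. Among the 11, 2 were called lower (Fbn1 and Fbln2), 5 were lower and 1 higher at an unadjusted p under 0.05, and the median log2 fold change was -0.88. Without CD8KO_9752 the median was -0.56, and without any 1 library it lay between -1.54 and -0.39. Under the pan-endothelial scaling it was -0.36, where the median of all genes was 0.70. Ltbp4, which tethers latent transforming growth factor beta to microfibrils, stood at 127, 95.1 and 106 CPM in TCRKO libraries, against 463, 286 and 260.4 CPM in CD8KO-labelled libraries. Its estimate of -1.62 ± 0.31 missed the threshold (edgeR adjusted p = 0.0613). Fbln5, needed for elastic fibre assembly, stood at 24.2, 18.5 and 16.6 CPM in TCRKO libraries, against 88.8, 76.6 and 55.8 CPM in CD8KO-labelled libraries, an estimate of -1.90 ± 0.37 (edgeR adjusted p = 0.0613). For Ltbp4 and Fbln5 the groups did not overlap. Eln, which encodes elastin itself, stood at 7.44, 0.811 and 1.09 CPM in TCRKO libraries, against 34.5, 30.5 and 13.5 CPM in CD8KO-labelled libraries. Its estimate was -3.03 ± 0.77, with TCRKO_9765 well above the other TCRKO libraries.

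**Figure D2:**
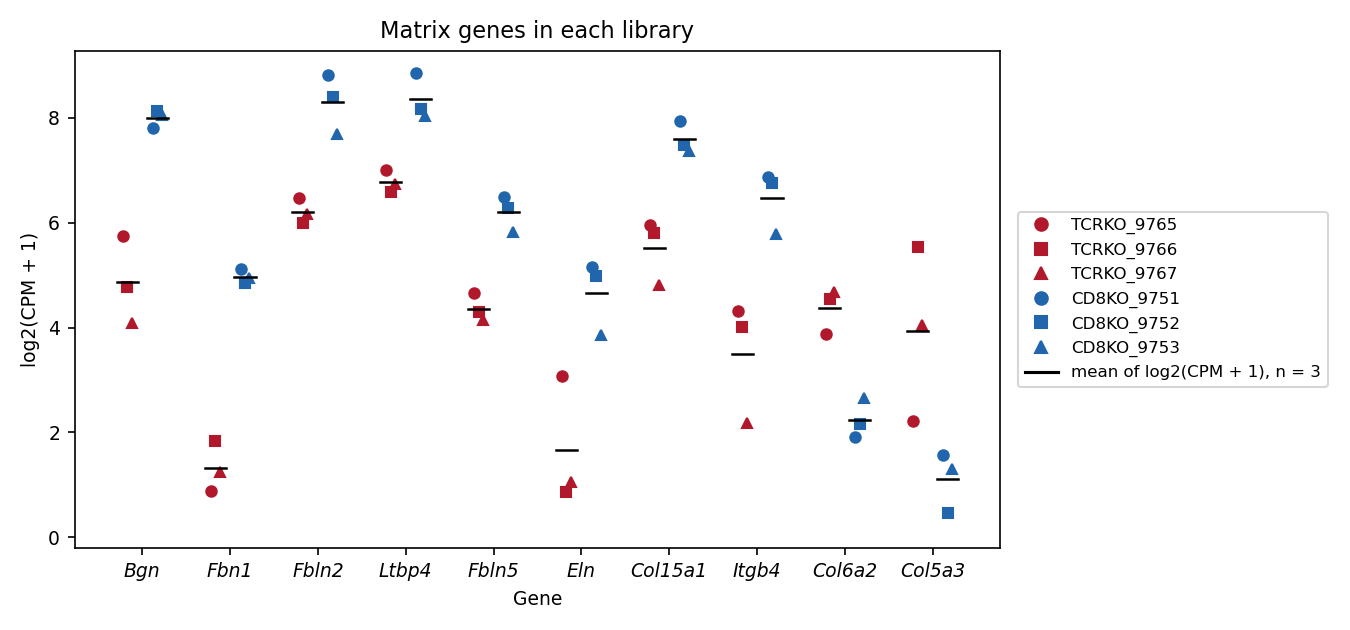
Levels of 10 matrix and matrix-binding genes as log2(CPM + 1) in each of the 3 TCRKO libraries (red) and 3 CD8KO libraries (blue), with 1 symbol per library and a bar at the mean of each group. Bgn, Fbn1 and Fbln2 passed the threshold. From Bgn to Itgb4 each TCRKO library lies below each CD8KO library, and Col6a2 and Col5a3 lie the other way.

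Basement membrane genes stood lower in TCRKO libraries by less, and by no more than the pan-endothelial markers, whose median was -0.54. All 17 members were tested, 15 had an estimate below 0, 5 were lower at an unadjusted p under 0.05 and 0 were called, with a median of -0.43. Under the pan-endothelial scaling the median was 0.24, with 11 estimates above 0 and 6 below, where the median of all genes was 0.70. Col15a1, a collagen of the outer basement membrane, stood at 61.0, 54.5 and 27.2 CPM in TCRKO libraries, against 244, 178 and 165 CPM in CD8KO-labelled libraries. The estimate of -2.04 ± 0.36 missed the threshold (edgeR adjusted p = 0.0606) and passed it in 5 of 17 alternatives. Col18a1, whose cleavage gives endostatin, stood at 235, 249 and 223 CPM in TCRKO libraries, against 430.2, 478 and 278 CPM in CD8KO-labelled libraries. The estimate for Col4a1, a chain of collagen IV, was -0.69 ± 0.30, that for the laminin chain gene Lama5 -0.78 ± 0.31 and that for Fn1, which encodes fibronectin, -0.78 ± 0.28. Itgb4 encodes the integrin beta 4 subunit, which binds laminin, and stood at 19.0, 15.0 and 3.53 CPM in TCRKO libraries, against 117, 107 and 53.9 CPM in CD8KO-labelled libraries, an estimate of -2.86 ± 0.53 (edgeR adjusted p = 0.0611). Of 12 integrins tested Itgb4 was the 1 lower at an unadjusted p under 0.05, 1 was higher, and the median was -0.05.

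Collagens shared no direction, and their median changed sign with single libraries. Of 12 tested among 18 listed, 3 were higher and 4 lower at an unadjusted p under 0.05, with a median of 0.33 that was -0.46 without CD8KO_9752 and lay between -0.63 and 1.30 without any 1 library. Col5a3, a chain of the fibril-forming collagen V, stood at 3.65, 45.4 and 15.5 CPM in TCRKO libraries, against 1.95, 0.387 and 1.46 CPM in CD8KO-labelled libraries (edgeR adjusted p = 0.117). Col6a2, a chain of the beaded filaments around cells, stood at 13.8, 22.3 and 24.7 CPM in TCRKO libraries, against 2.77, 3.48 and 5.30 CPM in CD8KO-labelled libraries, an estimate of 2.39 ± 0.58 (edgeR adjusted p = 0.169). Fibroblast markers, which share Col6a1 and Col6a2 with these lists, summed to 50.1, 133 and 94.2 CPM in TCRKO libraries and 54.2, 67.5 and 78.2 CPM in CD8KO-labelled libraries, and their part in the collagen values was not tested. Of 5 tested fibroblast markers 2 had an estimate above 0 and 3 below, with a median of -0.18. Pdgfra, a receptor of fibroblasts, had 0, 46 and 40 counts in TCRKO libraries, against 0, 0 and 1 counts in CD8KO-labelled libraries. Dcn, another marker of the list, had 0, 0 and 1 counts in TCRKO libraries, against 0, 0 and 40 counts in CD8KO-labelled libraries. Mmp2, also on this list, is given below and had an estimate below 0. Col13a1, a transmembrane collagen, stood at 1.40, 3.38 and 2.99 CPM in TCRKO libraries, against 6.18, 8.94 and 8.61 CPM in CD8KO-labelled libraries. Col5a2 was read 0, 0 and 1 times in TCRKO libraries, against 39, 86 and 0 times in CD8KO-labelled libraries, so its level rests on CD8KO_9751 and CD8KO_9752.

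Among 15 tested matrix proteases and inhibitors 2 were lower and 0 higher at an unadjusted p under 0.05. Over all genes 4.37% were lower and 3.43% higher at that level. Mmp2, a gelatinase, stood at 13.9, 3.25 and 1.90 CPM in TCRKO libraries, against 20.3, 21.5 and 26.9 CPM in CD8KO-labelled libraries (-1.83 ± 0.66). Adamts9, a protease that cleaves proteoglycans, stood at 112, 72.5 and 80.1 CPM in TCRKO libraries, against 194, 117 and 159 CPM in CD8KO-labelled libraries (-0.83 ± 0.32). In both genes all TCRKO libraries lay below all CD8KO-labelled libraries.

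Genes that mark venous endothelium and the venules through which leukocytes leave the blood had the lowest median log2 fold change of the 40 lists with at least 5 tested members. All 12 venous genes were tested, 8 were lower and 0 higher at an unadjusted p under 0.05 against 4.37% and 3.43% of all genes, and the median log2 fold change was -1.43. Their summed level was 1379, 1421 and 733 CPM in TCRKO libraries, against 3782, 3063 and 2678 CPM in CD8KO-labelled libraries, with no overlap. No venous gene passed the adjusted threshold.

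Selp encodes P-selectin, on which leukocytes roll, and stood at 39.3, 13.9 and 32.9 CPM in TCRKO libraries, against 171, 287 and 83.6 CPM in CD8KO-labelled libraries. Its estimate was -2.66 ± 0.48 (edgeR adjusted p = 0.0611), past the threshold in 7 of 17 alternatives. Ackr1, a chemokine-binding receptor of venules, stood at 9.41, 7.57 and 8.42 CPM in TCRKO libraries, against 37.7, 71.9 and 32.3 CPM in CD8KO-labelled libraries (-2.48 ± 0.46, edgeR adjusted p = 0.0611). The TCRKO libraries lay close together for Ackr1, and none overlapped the CD8KO-labelled range. Vwf, which encodes von Willebrand factor and is stored with P-selectin in Weibel-Palade bodies, stood at 150.3, 152 and 107 CPM in TCRKO libraries, against 475, 542 and 267 CPM in CD8KO-labelled libraries (-1.65 ± 0.32, edgeR adjusted p = 0.0613). Aplnr, the apelin receptor, stood at 262, 298 and 159 CPM in TCRKO libraries, against 991, 499 and 658 CPM in CD8KO-labelled libraries (-1.58 ± 0.33, edgeR adjusted p = 0.0905). Plvap, which forms the diaphragms of fenestrated endothelium, and Ephb4, a receptor of veins, had estimates of -1.13 ± 0.35 and -1.40 ± 0.53. Lrg1, a glycoprotein that modulates endothelial transforming growth factor beta signalling, stood at 122, 80.9 and 57.3 CPM in TCRKO libraries, against 206, 251 and 256 CPM in CD8KO-labelled libraries. Under the pan-endothelial scaling the venous median was -0.82. Without any 1 library it lay between -1.60 and -1.07, and without CD8KO_9752 at -1.38. The lymphatic list had the lower median without CD8KO_9751 (-1.53, against -1.36 for the venous list) and without TCRKO_9765 (-1.54, against -1.51).

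Sele, which encodes E-selectin, the selectin that cytokines induce on endothelium, was read 0, 0 and 1 times in TCRKO libraries, against 126, 249 and 21 times in CD8KO-labelled libraries. The ratio of depth-scaled counts, TCRKO over CD8KO, was 0.00477 with an exact 95% Poisson interval of 0.00012 to 0.0267, which covers counting error only. Aoc3, an amine oxidase that supports leukocyte adhesion, had 0 counts in each TCRKO library, against 16, 33 and 167 counts in CD8KO-labelled libraries. At 3 counts over the TCRKO group its level was at least 38.1-fold lower in TCRKO libraries. Without CD8KO_9753, which holds 167 of the 216 counts, the level was at least 11.1-fold lower. Both genes were present in each CD8KO-labelled library, with CD8KO_9753 lowest for Sele and highest for Aoc3 by counts.

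The promoter windows of the P-selectin and E-selectin genes are printed because they encode the selectins of endothelium whose levels were just given. They are the 250 bases before the start in RefSeq, GRCm38.p6, on the plus strand, with capitals marking the letters TATAAA.
Selp, chr1:164115014-164115263, plus strand: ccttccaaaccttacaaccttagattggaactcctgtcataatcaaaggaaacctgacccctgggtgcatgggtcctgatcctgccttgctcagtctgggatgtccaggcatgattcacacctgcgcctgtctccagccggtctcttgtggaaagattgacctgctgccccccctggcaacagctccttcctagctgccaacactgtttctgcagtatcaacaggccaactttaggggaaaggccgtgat
Sele, chr1:164047984-164048233, plus strand: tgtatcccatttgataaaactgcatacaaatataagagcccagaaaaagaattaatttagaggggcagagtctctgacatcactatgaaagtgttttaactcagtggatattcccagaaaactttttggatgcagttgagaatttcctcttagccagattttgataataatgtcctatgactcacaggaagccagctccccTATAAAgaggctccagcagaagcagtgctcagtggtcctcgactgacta
Sele holds TATAAA from -49 to -44, and Selp holds none of the 3 motifs searched. Neither window holds the GC box or ETS letters given above. GC content was 53.6% for Selp and 40.4% for Sele.

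**Figure D3:**
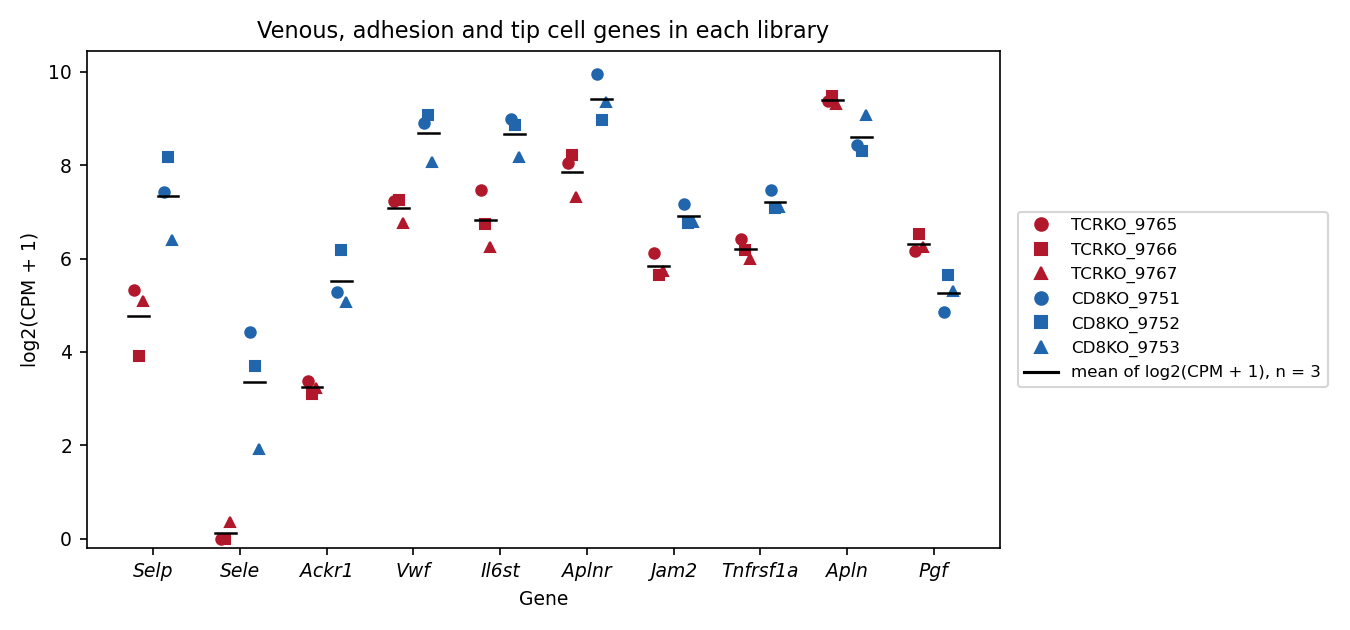
Levels of 10 venous, adhesion, cytokine receptor and tip cell genes as log2(CPM + 1) in each of the 3 TCRKO libraries (red) and 3 CD8KO libraries (blue), with 1 symbol per library and a bar at the mean of each group. None passed the threshold. From Selp to Tnfrsf1a each TCRKO library lies below each CD8KO library, and Apln and Pgf lie the other way.

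In the whole list of leukocyte adhesion genes 15 of 19 were tested, 14 had an estimate below 0, 6 were lower and 0 higher at an unadjusted p under 0.05, and the median was -0.63. This list shares Selp and Vwf with the venous list and Jam2 with the junction list, so their counts are not separate observations. Its median equals the estimate of Pecam1. Jam2, a junction molecule for leukocyte passage, stood at 69.0, 49.4 and 51.9 CPM in TCRKO libraries, against 142, 108 and 109.9 CPM in CD8KO-labelled libraries (-1.08 ± 0.31). Against the median of all genes the adhesion list stood at -0.64, and at -0.66 under the pan-endothelial scaling, where its own median is 0.04. Without any 1 library its median lay between -0.64 and -0.49. Chemokines gave 4 lower and 0 higher of 13 tested at an unadjusted p under 0.05, with a median of -0.78, or -1.04 to -0.31 without any 1 library. The chemokine median was 0.0093 under the pan-endothelial scaling, where that of all genes was 0.70. Ackr1 is counted both here and in the venous list. Cxcl12, the ligand of Cxcr4, stood at 90.3, 56.9 and 45.1 CPM in TCRKO libraries, against 232, 119.9 and 137 CPM in CD8KO-labelled libraries (-1.34 ± 0.36). Cxcl16, a membrane-bound chemokine for Cxcr6, stood at 13.2, 10.5 and 10.3 CPM in TCRKO libraries, against 24.9, 33.1 and 15.4 CPM in CD8KO-labelled libraries. Neither overlapped between groups.

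Receptors for inflammatory cytokines were examined with their downstream genes. Il6st encodes gp130, the shared receptor subunit of the interleukin-6 family, which signals through Jak kinases and Stat3. It stood at 177, 107 and 74.4 CPM in TCRKO libraries, against 505, 461 and 288 CPM in CD8KO-labelled libraries, an estimate of -1.81 ± 0.35 (edgeR adjusted p = 0.0621) that passed the threshold in 4 of 17 alternatives. Osmr, the oncostatin M receptor, overlapped between groups, at 17.4, 29.6 and 32.9 CPM in TCRKO libraries, against 82.0, 60.0 and 22.4 CPM in CD8KO-labelled libraries. Jak2 and Stat3 had estimates of -1.50 ± 0.61 and -0.71 ± 0.33. Il6 itself, the ligand, was low, at 1.83, 0.541 and 0.272 CPM in TCRKO libraries, against 6.67, 3.14 and 5.17 CPM in CD8KO-labelled libraries. Pim1, a kinase gene that Stat3 induces, went the other way, at 25.8, 24.7 and 35.8 CPM in TCRKO libraries, against 9.60, 8.07 and 8.08 CPM in CD8KO-labelled libraries (1.74 ± 0.46). Over the 16 tested genes of this list 5 were lower and 1 higher at an unadjusted p under 0.05, and the median was -0.67. Under the pan-endothelial scaling that median was -0.027, where the median of all genes was 0.70. Il6st is also a member of the venous list.

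The NF-kappaB list, 24 genes tested, had 5 lower and 0 higher at an unadjusted p under 0.05 and a median of -0.12. Tnfrsf1a, the main receptor for tumour necrosis factor on endothelium, stood at 84.4, 71.4 and 62.7 CPM in TCRKO libraries, against 175, 135 and 137 CPM in CD8KO-labelled libraries (-1.03 ± 0.30). Nfkb1 stood at 12.9, 17.04 and 13.8 CPM in TCRKO libraries, against 42.3, 30.7 and 17.9 CPM in CD8KO-labelled libraries. Relb, another subunit of the factor, had an estimate of -1.54 ± 0.68. Most of the list, 19 genes, did not reach an unadjusted p of 0.05.

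Genes that interferon gamma induces in endothelium had mostly estimates below 0 and few small p-values. Of 35 tested 28 had an estimate below 0, the median was -0.46 and none was called. At an unadjusted p under 0.05, 3 were lower and 0 higher, against 4.37% and 3.43% of all genes. In 5 of the 35 all TCRKO libraries lay below all CD8KO-labelled libraries, against 7.81% of all genes. The summed level was 1549, 1527 and 1261 CPM in TCRKO libraries, against 1821, 1868 and 1971 CPM in CD8KO-labelled libraries, without overlap. Against the median of all genes the list stood at -0.46, and at -0.49 under the pan-endothelial scaling, where its own median is 0.21 and that of all genes 0.70. Gbp2, a guanylate-binding protein, stood at 75.0, 71.1 and 35.3 CPM in TCRKO libraries, against 117, 150.2 and 90.8 CPM in CD8KO-labelled libraries (-0.98 ± 0.36), and Wars, the tryptophan tRNA ligase, had an estimate of -0.75 ± 0.35. B2m, the light chain of class I molecules, stood at 516, 458 and 566 CPM in TCRKO libraries, against 199.8, 263 and 444 CPM in CD8KO-labelled libraries (0.76 ± 0.31). Among 20 tested class I genes B2m was the 1 with an unadjusted p under 0.05, and the median was -0.06. Class II genes had a median of -0.16 over 10 tested, and 1 was higher at an unadjusted p under 0.05, Ifi30, a thiol reductase of antigen processing, at 1.56 ± 0.57. Type I interferon genes had a median of -0.14 over 25 tested, with 1 lower, Ifit3, at -0.97 ± 0.43.

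Tip cell genes, which mark the leading cells of vessel sprouts, gave 4 higher and 0 lower of 18 tested at an unadjusted p under 0.05, with a median of -0.04. Apln, the apelin peptide that sprouting cells release, stood at 658, 713 and 638 CPM in TCRKO libraries, against 345, 314 and 539 CPM in CD8KO-labelled libraries (0.75 ± 0.28). Its receptor Aplnr was described above with the venous genes and has an estimate of the opposite sign. Pgf, placental growth factor, stood at 70.1, 91.3 and 74.9 CPM in TCRKO libraries, against 27.99, 48.7 and 38.3 CPM in CD8KO-labelled libraries (1.04 ± 0.34). Kcne3, a potassium channel subunit, stood at 37.2, 36.1 and 40.7 CPM in TCRKO libraries, against 13.0, 24.7 and 21.5 CPM in CD8KO-labelled libraries. Cxcr4, the receptor for Cxcl12, stood at 333, 294 and 304 CPM in TCRKO libraries, against 159, 95.9 and 291 CPM in CD8KO-labelled libraries. In these 4 genes each TCRKO library lay above each CD8KO-labelled library, narrowly for Cxcr4 because CD8KO_9753 was high.

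Receptors of vascular growth factors stood below the CD8KO-labelled level, and of 7 tested genes of that family 3 were lower and 1 higher at an unadjusted p under 0.05. Kdr, the main receptor for vascular endothelial growth factor A, stood at 298, 225 and 196 CPM in TCRKO libraries, against 494, 307 and 358 CPM in CD8KO-labelled libraries (-0.69 ± 0.29). The estimates for Flt1 and Flt4, which encode the other receptors of this family, were -0.61 ± 0.27 and -0.62 ± 0.29. Tek, the angiopoietin receptor, stood at 39.5, 43.1 and 52.4 CPM in TCRKO libraries, against 79.1, 79.3 and 93.7 CPM in CD8KO-labelled libraries, and Ptprb, the phosphatase that acts on it, had an estimate of -1.07 ± 0.29. Groups did not overlap in any of these 5 genes. Under the pan-endothelial scaling, in which Kdr itself takes part, Kdr, Flt1 and Flt4 stood at 0.0046, 0.059 and 0.065 on the log2 scale, below the median of all genes of 0.70. Angptl2, an angiopoietin-like secreted protein, was the highest-ranked gene with an estimate above 0, at 21.9, 98.7 and 46.4 CPM in TCRKO libraries, against 4.23, 9.38 and 4.37 CPM in CD8KO-labelled libraries. Its estimate was 3.19 ± 0.58 (edgeR adjusted p = 0.0611), past the threshold in 6 of 17 alternatives.

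The Notch list had 1 gene higher and 1 lower of 13 tested at an unadjusted p under 0.05, and both were receptors. Over all genes 3.43% were higher and 4.37% lower at that level. Notch1, the main endothelial receptor, stood at 125, 161 and 110.0 CPM in TCRKO libraries, against 361, 209 and 241 CPM in CD8KO-labelled libraries (-1.03 ± 0.31). Notch2 stood at 67.7, 47.2 and 42.1 CPM in TCRKO libraries, against 24.2, 34.1 and 4.51 CPM in CD8KO-labelled libraries (1.31 ± 0.56). Of 19 tested genes of the transforming growth factor beta and bone morphogenetic protein pathways 3 were lower, 0 higher and the median was -0.32. Under the pan-endothelial scaling that median was 0.32, where the median of all genes was 0.70. Eng, which encodes endoglin, an auxiliary receptor, stood at 614, 809 and 544 CPM in TCRKO libraries, against 1327, 1287 and 1113 CPM in CD8KO-labelled libraries (-0.92 ± 0.26). Tgfbr3, the auxiliary receptor betaglycan, had an estimate of -0.94 ± 0.33, and Bmp4, a ligand, had -2.12 ± 0.87.

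Transcription factors of endothelial identity had 5 lower and 0 higher of 20 tested at an unadjusted p under 0.05, with a median of -0.59. Under the pan-endothelial scaling that median was 0.087, where the median of all genes was 0.70. Epas1, the hypoxia-inducible factor 2 alpha subunit, stood at 176, 121 and 181 CPM in TCRKO libraries, against 390.3, 451 and 225 CPM in CD8KO-labelled libraries (-1.16 ± 0.32). Sox17, an arterial factor, stood at 17.3, 10.5 and 10.05 CPM in TCRKO libraries, against 29.1, 22.7 and 49.0 CPM in CD8KO-labelled libraries (-1.41 ± 0.47). Foxo1 and Fli1 had estimates of -1.02 ± 0.37 and -0.93 ± 0.33. Arterial genes gave 5 lower and 1 higher of 14 tested, with a median of -0.66, or 0.040 under the pan-endothelial scaling. The 5 were Ltbp4, Fbln5, Cxcl12, Sox17 and Gja5. Ltbp4 and Fbln5 were given above with the elastic fibre genes, Cxcl12 with the chemokines and Sox17 with the transcription factors. The gap junction gene Gja5 stood at 54.2, 10.01 and 9.50 CPM in TCRKO libraries, against 90.5, 35.8 and 74.6 CPM in CD8KO-labelled libraries. Edn1, endothelin-1, is not among these 5 and stood at 2.67, 5.27 and 2.44 CPM in TCRKO libraries, against 13.8, 18.9 and 11.5 CPM in CD8KO-labelled libraries. Gja5 overlapped between groups because of TCRKO_9765, while Edn1 did not overlap.

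Genes of capillaries that take up fatty acids had 3 lower and 0 higher of 11 tested at an unadjusted p under 0.05, and a median of -0.22. Fabp4, a fatty acid carrier, stood at 54.1, 29.3 and 52.1 CPM in TCRKO libraries, against 102, 85.2 and 133 CPM in CD8KO-labelled libraries (-1.24 ± 0.35). Car4, a membrane carbonic anhydrase, stood at 4.49, 5.68 and 0.815 CPM in TCRKO libraries, against 22.6, 11.9 and 19.3 CPM in CD8KO-labelled libraries (-2.25 ± 0.69). Gpihbp1, which carries lipoprotein lipase to the lumen, stood at 349, 442 and 472 CPM in TCRKO libraries, against 162, 243 and 393 CPM in CD8KO-labelled libraries, so the members of this list do not share a direction.

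Lymphatic markers were low in both groups and lower in TCRKO libraries, where they summed to 152, 143 and 130.1 CPM, against 199, 250.3 and 260.0 CPM in CD8KO-labelled libraries. Most of each sum was Flt4, which is also in the list of vascular growth factor receptors described above. Flt4 stood at 80.5, 109 and 86.6 CPM in TCRKO libraries, against 153, 130 and 144 CPM in CD8KO-labelled libraries. Of 7 tested, 4 were lower at an unadjusted p under 0.05. Prox1, the factor that sets lymphatic identity, stood at 2.11, 0.270 and 1.63 CPM in TCRKO libraries, against 3.42, 18.9 and 6.76 CPM in CD8KO-labelled libraries (-2.87 ± 0.94). Ccl21a, a chemokine of lymphatic vessels, stood at 0, 4.87 and 1.36 CPM in TCRKO libraries, against 2.77, 20.3 and 38.3 CPM in CD8KO-labelled libraries, and Mmrn1, a multimerin of lymphatic endothelium, had an estimate of -2.51 ± 0.93. Mmrn1 and Prox1 were highest in CD8KO_9752 or CD8KO_9753, and for Ccl21a the groups overlapped.

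Guidance and junction genes had medians below 0. Of 19 tested guidance genes 4 were lower and 0 higher at an unadjusted p under 0.05, with a median of -0.55, and Sema6a, a transmembrane semaphorin, stood at 9.69, 28.4 and 30.4 CPM in TCRKO libraries, against 71.3, 60.4 and 31.3 CPM in CD8KO-labelled libraries. Of 17 tested junction genes 4 were lower, 0 were higher and the median was -0.29. Cdh5, which encodes VE-cadherin, stood at 1139.9, 1139 and 858 CPM in TCRKO libraries, against 2064, 1386 and 1579 CPM in CD8KO-labelled libraries (-0.68 ± 0.26). Relative to the pan-endothelial genes the medians were 0.15 for guidance and 0.41 for junction genes, where the median of all genes was 0.70. Ehd3, which encodes an endocytic recycling protein, stood at 6.60, 5.14 and 11.1 CPM in TCRKO libraries, against 53.4, 39.0 and 46.0 CPM in CD8KO-labelled libraries (-2.61 ± 0.46, edgeR adjusted p = 0.0606). Ret, a receptor tyrosine kinase, stood at 0.421, 0.676 and 2.44 CPM in TCRKO libraries, against 21.6, 39.3 and 6.76 CPM in CD8KO-labelled libraries (-4.38 ± 0.85, edgeR adjusted p = 0.0613). Both had all TCRKO libraries below all CD8KO-labelled libraries.

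**Figure D4:**
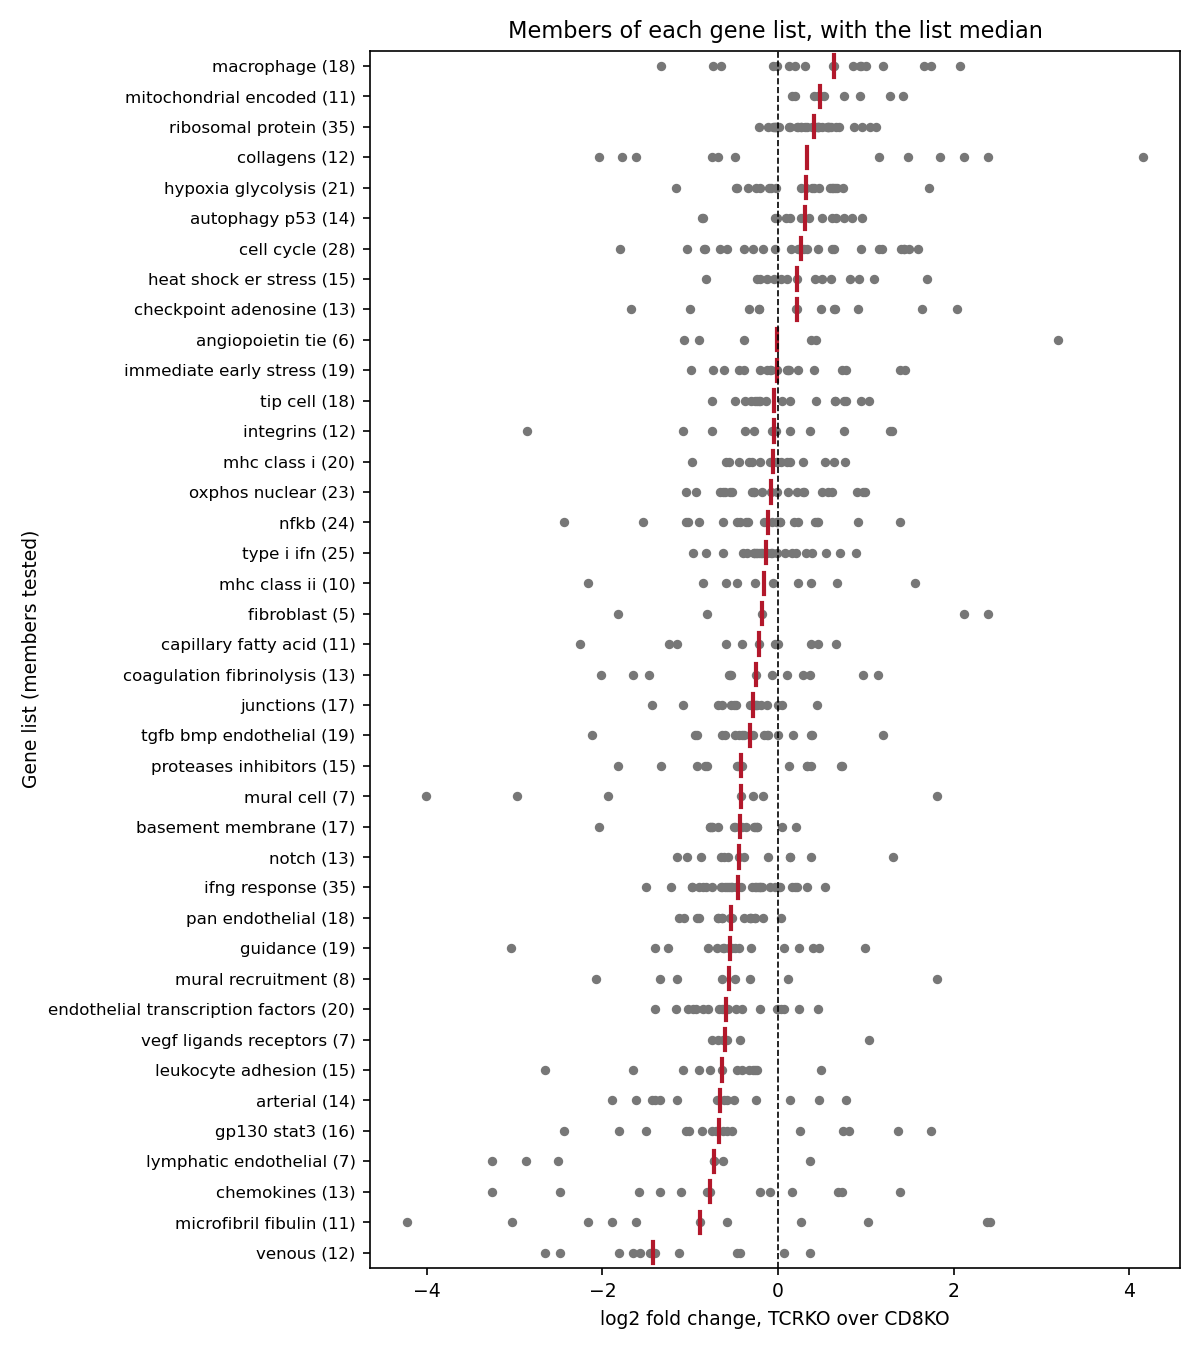
Log2 fold change, TCRKO over CD8KO, of the tested members of 40 gene lists, with 1 grey point per member that had more than 3 counts in each group, a red bar at the list's median over all tested members and a dashed line at the median of all 10319 genes. The venous list lies lowest at -1.43 and the elastic fibre list (microfibril fibulin) next at -0.88, while the macrophage list lies highest at 0.63.

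Genes with estimates above 0 did not pass the threshold, and several belong to macrophages. Of 18 tested macrophage markers 5 were higher and 0 lower at an unadjusted p under 0.05, with a median of 0.63, or 0.23 to 0.97 without any 1 library. Fcer1g, the Fc receptor gamma chain of myeloid cells, stood at 124, 65.7 and 123 CPM in TCRKO libraries, against 43.3, 20.9 and 34.5 CPM in CD8KO-labelled libraries (1.67 ± 0.38, edgeR adjusted p = 0.138). Tyrobp, another marker of this list, stood at 32.9, 13.3 and 54.0 CPM in TCRKO libraries, against 3.74, 6.87 and 13.1 CPM in CD8KO-labelled libraries. Csf1r, the receptor for macrophage colony-stimulating factor, stood at 189.6, 26.2 and 102 CPM in TCRKO libraries, against 46.4, 25.5 and 23.5 CPM in CD8KO-labelled libraries (1.74 ± 0.55). Cd68, a lysosomal protein, overlapped between groups at 72.5, 32.5 and 70.1 CPM in TCRKO libraries, against 32.5, 33.1 and 21.3 CPM in CD8KO-labelled libraries. Lyz2, a lysozyme gene, overlapped too, at 259, 76.5 and 188 CPM in TCRKO libraries, against 63.3, 167 and 42.3 CPM in CD8KO-labelled libraries. The macrophage pattern thus rests mainly on TCRKO_9765 and TCRKO_9767, and its part in the genes with estimates above 0 was not tested.

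Among the 12 highest-ranked genes with estimates above 0, Ccl6, a chemokine of myeloid cells, stood at 31.3, 10.7 and 22.8 CPM in TCRKO libraries, against 3.91, 5.03 and 1.59 CPM in CD8KO-labelled libraries (edgeR adjusted p = 0.18). Axl, a receptor tyrosine kinase of the TAM family, stood at 55.5, 123 and 72.8 CPM in TCRKO libraries, against 33.2, 14.0 and 23.1 CPM in CD8KO-labelled libraries (1.85 ± 0.42, edgeR adjusted p = 0.138). Its highest value was in TCRKO_9766, the library with the lowest macrophage sum of its group. Which cells of the sort the Axl RNA came from was not tested.

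A further group of genes with estimates above 0 was highest in TCRKO_9766 or TCRKO_9767. Steap2, a metalloreductase, stood at 17.3, 28.4 and 11.7 CPM in TCRKO libraries, against 0.651, 1.69 and 2.65 CPM in CD8KO-labelled libraries (3.501 ± 0.70, edgeR adjusted p = 0.0704). Sdc1, the heparan sulphate proteoglycan syndecan-1, stood at 17.8, 38.7 and 31.0 CPM in TCRKO libraries, against 2.77, 1.26 and 6.23 CPM in CD8KO-labelled libraries (3.11 ± 0.64, edgeR adjusted p = 0.0807). Ptprs, a receptor phosphatase that binds such proteoglycans, stood at 14.6, 31.5 and 10.05 CPM in TCRKO libraries, against 0.814, 3.82 and 1.46 CPM in CD8KO-labelled libraries (edgeR adjusted p = 0.151). In all 3 genes the groups did not overlap. Ptges, which makes prostaglandin E2, stood at 17.8, 15.1 and 32.0 CPM in TCRKO libraries, against 4.23, 0.725 and 3.31 CPM in CD8KO-labelled libraries (edgeR adjusted p = 0.151). Ugt1a7c, a glucuronosyltransferase, stood at 34.8, 19.6 and 43.4 CPM in TCRKO libraries, against 8.79, 4.54 and 9.54 CPM in CD8KO-labelled libraries (edgeR adjusted p = 0.17). Ugt1a7c shares exons with other genes of its locus, so its count may be split or shared among them.

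Markers of tumour epithelium were also higher in TCRKO libraries. They summed to 6.32, 26.1 and 14.1 CPM in TCRKO libraries, against 0.488, 1.98 and 2.65 CPM in CD8KO-labelled libraries, with 1 of 12 markers tested and Krt18, Krt19, Krt14, Epcam and Esrp1 at 0 in all 6 libraries. Krt8, a keratin, stood at 1.26, 17.6 and 8.15 CPM in TCRKO libraries, against 0.488, 0.193 and 0 CPM in CD8KO-labelled libraries. Vegfa, a growth factor that tumour cells release, is not among the 12 markers. It did not pass the filter on low counts and was not tested. Its levels were 0.983, 12.8 and 20.4 CPM in TCRKO libraries, against 1.14, 0.0967 and 0.663 CPM in CD8KO-labelled libraries. The part of tumour RNA in the genes with estimates above 0 was not tested.

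**Figure D5:**
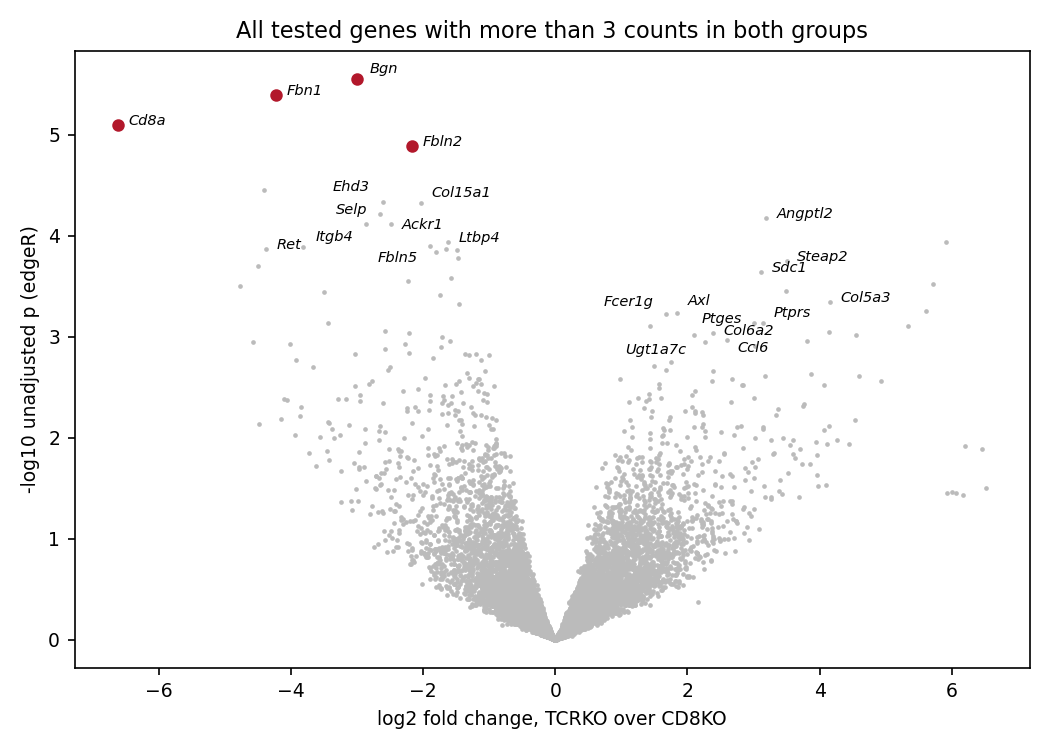
Log2 fold change, TCRKO over CD8KO (horizontal axis), and -log10 of the unadjusted edgeR p (vertical axis) of the tested genes with more than 3 counts in each group. The 4 genes past the adjusted threshold are red and all lie at negative fold changes, and the labels name genes described in the text that rank highest in each direction with a mean of at least 10 CPM.

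Of 12 markers of mural cells, the pericytes and smooth muscle around vessels, 7 were tested, 3 were lower and 0 higher at an unadjusted p under 0.05, and the median was -0.42. The list summed to 412, 534 and 345 CPM in TCRKO libraries, against 731, 331 and 615 CPM in CD8KO-labelled libraries, most of it Mcam, which endothelium also expresses. Tagln, a smooth muscle protein, stood at 0.140, 2.98 and 0 CPM in TCRKO libraries, against 24.4, 11.8 and 18.7 CPM in CD8KO-labelled libraries (-4.01 ± 1.00). Acta2, smooth muscle actin, stood at 1.26, 9.47 and 4.34 CPM in TCRKO libraries, against 27.3, 11.3 and 19.5 CPM in CD8KO-labelled libraries, and Rgs5, a pericyte marker, had an estimate of -2.97 ± 1.06. Pdgfrb, a receptor of pericytes, stood at 2.95, 1.35 and 4.89 CPM in TCRKO libraries, against 2.44, 0 and 0.265 CPM in CD8KO-labelled libraries, and Abcc9, a channel subunit, stood at 31.7, 27.2 and 24.4 CPM in TCRKO libraries, against 33.7, 31.4 and 29.3 CPM in CD8KO-labelled libraries, both overlapping. Smooth muscle cells also make elastin, biglycan and fibrillin, and the part of mural cells in the values of Bgn, Fbn1 and Eln was not tested. Of 8 tested genes that endothelium uses to recruit mural cells 2 were lower and 0 higher at an unadjusted p under 0.05. Over all genes 4.37% were lower and 3.43% higher at that level. Mcam itself stood at 371, 487 and 308 CPM in TCRKO libraries, against 628, 266 and 532 CPM in CD8KO-labelled libraries, overlapping.

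Of 13 tested immune checkpoint and adenosine genes 2 were higher and 2 lower at an unadjusted p under 0.05. Entpd1, which encodes CD39, the enzyme that breaks down extracellular ATP, stood at 229.9, 218 and 211 CPM in TCRKO libraries, against 453, 469 and 403 CPM in CD8KO-labelled libraries (-1.01 ± 0.26). Tnfsf10, the death ligand TRAIL, stood at 7.16, 24.6 and 16.3 CPM in TCRKO libraries, against 66.4, 46.2 and 41.1 CPM in CD8KO-labelled libraries (-1.67 ± 0.47). Lgals1, which encodes galectin-1, stood at 27.1, 54.9 and 70.1 CPM in TCRKO libraries, against 6.51, 12.9 and 29.2 CPM in CD8KO-labelled libraries (1.64 ± 0.54). Groups were separate for Entpd1 and Tnfsf10 and overlapped for Lgals1. In the coagulation list Plaur, the urokinase receptor, stood at 95.8, 126 and 108 CPM in TCRKO libraries, against 56.5, 27.99 and 65.6 CPM in CD8KO-labelled libraries (1.14 ± 0.36).

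The 35 ribosomal protein genes had 3 higher and 0 lower at an unadjusted p under 0.05 and a median of 0.41. That median was 0.08 without CD8KO_9751 and lay between 0.08 and 0.61 without any 1 library. All 11 tested mitochondrially encoded genes had an estimate above 0, with a median of 0.47 and 0 at an unadjusted p under 0.05. Without CD8KO_9752 this median was 0.07, and without any 1 library it lay between 0.07 and 1.36. The mitochondrially encoded sums overlapped, at 8131, 8645 and 8560 CPM in TCRKO libraries, against 5541, 3566 and 8876 CPM in CD8KO-labelled libraries. Nuclear genes of oxidative phosphorylation had a median of -0.08. Hypoxia and glycolysis genes had 2 higher and 1 lower of 21 tested, against 3.43% and 4.37% of all genes, and a median of 0.31. Egln3, the oxygen-sensing prolyl hydroxylase 3, stood at 18.8, 27.6 and 20.6 CPM in TCRKO libraries, against 5.21, 4.25 and 10.9996 CPM in CD8KO-labelled libraries (1.72 ± 0.54). Cell cycle genes had 1 higher and 2 lower of 28 tested, against 3.43% and 4.37% of all genes. Mki67, which marks dividing cells, stood at 34.3, 44.2 and 38.3 CPM in TCRKO libraries, against 68.5, 63.1 and 77.8 CPM in CD8KO-labelled libraries (-0.84 ± 0.33). Cdk6, a kinase of entry into the cycle, stood at 34.1, 49.9 and 42.4 CPM in TCRKO libraries, against 14.6, 14.8 and 15.4 CPM in CD8KO-labelled libraries (1.495 ± 0.40). Both separated the groups, in opposite directions. Immediate early genes had 2 higher and 0 lower of 19 tested, while 0 of 15 heat shock and endoplasmic reticulum stress genes and 0 of 14 autophagy and p53 genes had an unadjusted p under 0.05.

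The number of calls depended on single libraries and on the samples in the fit. Without CD8KO_9751 or without CD8KO_9752 no gene was called by edgeR, with 718 and 756 genes at an unadjusted p under 0.05, and in a fit of all 20 libraries, which shares 1 estimate of spread with WT and the other backgrounds, none was called with 703 at that level. DESeq2 on the same 6 libraries called 134, 63 higher and 71 lower, of which 3 were among the 4 calls.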

How the data were processed

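The authors deposited, per the file headers, one RSEM gene table per library with expected counts, TPM and FPKM for 46983 gene IDs. They used STAR (no version), RSEM 1.2.28, bcl2fastq 2.17 and DESeq2 with build GRCm38, per the submitters' processing notes, and an annotation not given in the sources used here. The deposited expected (estimated) counts, of which 4.836% were not whole in the 6 libraries, were rounded for testing, since RSEM splits reads between similar genes; the deposited TPM values served only to rank markers, and the FPKM columns were not used. Symbols, biotypes and gene coordinates came from GENCODE M21 for 46488 IDs; 495 had none.

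The 3 TCRKO and 3 CD8KO libraries were fitted alone with edgeR 4.0.16 in R 4.3.3 (filterByExpr, TMM, robust quasi-likelihood F test, Benjamini-Hochberg over all 10319 tested genes, threshold 0.05). The common biological coefficient of variation was 0.611. Scripts were tested on simulated data. The labels name no strand-specific kit, so a gene and its antisense partner cannot be told apart. The counts are of amplified reads, with no molecular identifiers mentioned in the labels, so Poisson intervals (95%) and the floor of 3 counts cover counting error only.

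The comparison, the members and the 49 gene lists were chosen with earlier results of these data known, so lists are described by counts and medians without a test. Genes were named by a rule: the label genes, the 12 genes per direction with the smallest p, protein-coding and with a mean of at least 10 CPM, and up to 5 tested members per list with a mean of at least 1 CPM. Of the genes so named, 1 is not reported here. Genes with 3 counts or fewer in a group are given by their counts. Alternatives were DESeq2 1.42.0, limma 3.58.1 (voom), other scalings, filters and sets of libraries, offsets from the deposited effective lengths, and leaving out each library.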

Additional observations from a re-analysis of the deposited data

How the results depend on the processing

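The counts of 4 genes called, 0 higher and 4 lower, varied with the setting. DESeq2 called 134 (63 higher, 71 lower), limma-voom 13 (0 and 13), no filter on low counts 133 (64 and 69), a filter of 5 CPM in 3 libraries 29 (5 and 24), effective length offsets 1 (0 and 1), protein-coding genes alone 11 (1 and 10), all 20 libraries 0 (0 and 0) and the scaling to pan-endothelial genes, added after seeing the data, 79 (69 and 10). RLE and upper-quartile factors and the fit of 16 libraries without WT each called 4, all lower. Leaving out 1 library gave 0 to 14 calls, 0 to 10 higher and 0 to 7 lower. Beyond the losses given in the report, Fbn1 missed the threshold with limma-voom (adjusted p = 0.0984) and effective length offsets (0.0724), Fbln2 with the 16 libraries (0.0785) and effective length offsets (0.0652), and Cd8a with limma-voom (0.150), the 16 libraries (0.315) and effective length offsets (0.0652). With all 20 libraries the adjusted p was 0.124 for Bgn and Fbn1, 0.139 for Fbln2 and 0.873 for Cd8a. Over 102 named genes and their 1726 estimates under the alternatives, 1576 kept direction and side of the threshold, 113 newly passed it, 25 no longer passed it and 12 changed sign. Of 679 list medians under alternatives 608 moved by less than the spread between libraries. The estimates that changed sign were Cd4 with effective length offsets (-0.26) and when libraries were left out (-0.17 to 0.98), H2-Ab1 when libraries were left out (-0.24 to 0.10), Abcc9 with effective length offsets (0.17) and, under the pan-endothelial scaling, H2-Ab1 (0.64), Abcc9 (0.51), Mcam (0.39), Flt4 (0.065), Flt1 (0.059), Pecam1 (0.041), Cdh5 (0.0055) and Kdr (0.0046). No paired analysis was possible because each library number is used once, and TCRKO and CD8KO libraries share no number. Where not named, the cause was not tested. With 3 libraries per group, few reads on messenger RNA in 5 of 6, and a coefficient of variation of 0.611, a gene that missed the threshold is not shown to be equal.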

Other observations

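Levels of the genes described above were also read in the other backgrounds of the series, with 1 TMM scaling over all 20 libraries, as values without a test, from 3 TCRKO, 3 CD4KO, 4 Tie2Cre_H2Abf (Tie2Cre;H2Ab fl/fl), 3 CD8KO, 3 Tie2Cre and 4 WT libraries. The labels call the hosts TCRKO, CD4KO and Tie2Cre;H2Ab fl/fl deficient in CD4+ T cells, and call CD8KO, Tie2Cre and WT competent. Bgn had a median of 22.96 CPM in TCRKO libraries (13.4 to 46.1), 105 CPM in CD4KO (104 to 176) and 100.1 CPM in Tie2Cre_H2Abf (64.2 to 136), against 229 CPM in CD8KO (197 to 244), 265 CPM in Tie2Cre (198 to 283) and 99.4 CPM in WT (27.0 to 212). The TCRKO range lay below every background except WT, whose lowest library fell inside it.

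Fbn1 had a median of 1.13 CPM in TCRKO libraries, 17.5 CPM in CD4KO and 6.36 CPM in Tie2Cre_H2Abf, against 26.0 CPM in CD8KO, 36.6 CPM in Tie2Cre and 30.8 CPM in WT. Its highest TCRKO value, 2.25 CPM, lay below the lowest value of each other background, of which 2.53 CPM in a Tie2Cre_H2Abf library was the nearest. Fbln2 had a median of 59.1 CPM in TCRKO libraries, 211 CPM in CD4KO and 79.1 CPM in Tie2Cre_H2Abf, against 296 CPM in CD8KO, 545 CPM in Tie2Cre and 259 CPM in WT, and the TCRKO range overlapped that of Tie2Cre_H2Abf (52.5 to 103). Il6st reached at most 154 CPM in TCRKO libraries and at least 313 CPM in CD4KO and 144 CPM in Tie2Cre_H2Abf, against at least 251 CPM in CD8KO, 491 CPM in Tie2Cre and 241 CPM in WT. For Selp the TCRKO range of 12.2 to 34.4 CPM met only that of WT, which began at 32.7 CPM.

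Vwf was at most 133 CPM in TCRKO libraries and at least 174 CPM in every other background, with Tie2Cre_H2Abf libraries between 419 and 847 CPM. Cd8a stood at 38.9 to 69.4 CPM in the libraries labelled CD8KO and at no more than 2.93 CPM in any library of the other 5 backgrounds, TCRKO and WT among them. Among the genes with estimates above 0, Angptl2 stood at 19.1 to 86.4 CPM in TCRKO libraries, and no library of another background exceeded 14.7 CPM. Col6a2 stood at 12.02 to 20.6 CPM in TCRKO libraries and at no more than 7.08 CPM elsewhere. Apln stood otherwise, at 532 to 624 CPM in TCRKO libraries and 415 to 769.7 CPM in Tie2Cre_H2Abf, against 117 to 219 CPM in CD4KO, 276 to 469 CPM in CD8KO, 84.8 to 261 CPM in Tie2Cre and 66.2 to 287 CPM in WT.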
